A study of Mus musculus with 21 samples.

Results

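The genes examined here were 10 genes of cytokine reception in a mouse lymphoid progenitor (LP) line: the receptor chains *Il7r*, *Flt3*, *Kit*, *Il2rg*, *Csf2rb* and *Il6st*, the kinases *Jak1* and *Jak3*, and the transcription factors *Stat5a* and *Stat5b*. They were taken by symbol from the 55421 genes of the expression table, and all 10 passed the filter that left 11554 genes for testing. The line is *Ebf1*-deficient, of strain C57BL6/J and expresses Cas9, and the sgControl cells share all of this. Each condition received retroviral sgRNAs, with 2 sgRNAs pooled per gene: sgControl (against luciferase), sgLmo2, sgZbtb1, sgCbfa2t2 or sgCbfa2t3. Cells positive for Cas9-GFP and the sgRNA marker hNGFR were sorted 5 days later, and 3 QuantSeq libraries were made per condition, 15 in all. QuantSeq reads the 3′ end of each mRNA, so a transcript gives about the same number of reads whatever its length, and levels in CPM (reads in a gene, scaled to a common library total) can be set side by side between genes. ChIP-seq peak lists of Zbtb1 and Cbfa2t3 in the same kind of cell came from 2 replicates each.

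LPs live on cytokines. The cells here grew on OP9 stroma with IL-7, SCF and Flt3L at 10 ng/ml each, and these are the ligands of *Il7r*, *Kit* and *Flt3*, respectively. IL-7 binds a pair of chains, the IL-7 receptor alpha chain (*Il7r*) and the common gamma chain (*Il2rg*). Jak1 docks on the first and Jak3 on the second, and once activated they phosphorylate Stat5a and Stat5b, which enter the nucleus. Kit and Flt3 are receptor tyrosine kinases that need no JAK to signal. *Csf2rb* encodes the beta chain shared by the receptors of IL-3, IL-5 and GM-CSF, and *Il6st* encodes gp130, the chain shared by receptors of the IL-6 family.

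The libraries held 1705416 to 2095447 reads in genes, so that 3 reads, taken as the detection floor, were worth 1.43 to 1.76 CPM. Of the 4 targeted genes, none had less mRNA at a limma adjusted p under 0.05 in its own libraries: *Zbtb1* rose from 61.7 ± 5.51 to 105.6 ± 9.91 CPM (SD, n = 3 each; limma adjusted p = 0.00102) and *Cbfa2t3* from 190.2 ± 18.7 to 349.8 ± 12.9 (limma adjusted p = 1.67e-07). *Lmo2* was at 16.3 ± 7.99 against 18.4 ± 4.17 (limma adjusted p = 0.956) and *Cbfa2t2* at 21.9 ± 4.85 against 11.8 ± 0.698 (limma adjusted p = 0.412). A 3′ read count does not measure protein, so loss of the targeted proteins was not checked here, and every group below is meant as labelled. 3′ reads were also assigned to *Ebf1*, at 209.4 to 365.9 CPM, although the line is *Ebf1*-deficient. Of 13 progenitor markers all passed the filter on low values, from *Ptprc* at a mean of 431.2 CPM down to *Rag2* at 2.91 and *Rag1* at 2.07. Of markers of other cells, 3 of 8 B-cell, 2 of 8 T-cell, 4 of 8 myeloid, 1 of 6 erythroid and 2 of 12 stromal genes passed it, led by *Pax5* (4.96), *Thy1* (270.1, on both the T-cell and stromal lists), *Adgre1* (107.5) and *Hbb-bt* (146.3). The defining genes *Cd79a*, *Ms4a1*, *Cd8a*, *Elane*, *Hba-a1* and *Col3a1* were at 0 in all 15 libraries. Fewer cells of a kind and less RNA per cell cannot be told apart in such bulk libraries. The labels and methods describe the 3 libraries of a condition as biological replicates of 1 cell line, so all p-values refer to that line.

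The DNA where the 2 factors met these genes is shown first, as 200-base windows at the centers of peaks that touched no annotated exon and as sites of at most 30 bases for the others. All are on the plus strand of GRCm38.p6 (mm10), 5′ to 3′, with capitals marking matches on either strand to the letters searched: TGTGGT (the core bound by Runx factors), CAGCTG and CAGATG (E-boxes), TGGTGGTGG (the core of the Zbtb7c motif), TTCNNNGAA (the STAT palindrome) and AGATAA (the GATA core). The first is the center of the Cbfa2t3 peak in intron 9 of *Flt3*, which overlapped a Zbtb1 peak, and the second is the site at the *Flt3* start that lay in peaks of both factors.
*Flt3* intron 9, chr5:147366459-147366658: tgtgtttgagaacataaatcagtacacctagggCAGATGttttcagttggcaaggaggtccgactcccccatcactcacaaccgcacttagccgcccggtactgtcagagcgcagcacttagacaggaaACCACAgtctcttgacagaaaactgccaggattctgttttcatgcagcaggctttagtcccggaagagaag
*Flt3* start, chr5:147400358-147400387: tgcgcgtcactgACCACAgattccctcgga
The next 3 come from Zbtb1 peaks: the distal one upstream of *Il7r*, the one between the divergent *Stat5b* and *Stat5a* genes, and the repeat at the 3′ end of *Il6st*.
*Il7r* upstream, chr15:9574863-9575062: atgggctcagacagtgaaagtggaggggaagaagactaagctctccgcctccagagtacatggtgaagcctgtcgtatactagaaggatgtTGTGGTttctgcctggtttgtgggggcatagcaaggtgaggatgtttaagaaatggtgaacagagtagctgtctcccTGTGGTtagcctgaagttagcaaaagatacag
*Stat5b*-*Stat5a* interval, chr11:100853215-100853414: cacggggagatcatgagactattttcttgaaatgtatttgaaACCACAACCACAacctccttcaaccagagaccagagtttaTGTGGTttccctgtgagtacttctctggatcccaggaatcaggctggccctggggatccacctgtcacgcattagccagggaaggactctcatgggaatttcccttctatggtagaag
*Il6st* repeat, chr13:112509150-112509178: tcctttcctgCCACCACCACCACCACCAc
The last pair are the E-box shared by the peaks of both factors at the *Jak3* start and the STAT palindrome in the Cbfa2t3 peak at the *Csf2rb* start.
*Jak3* start, chr8:71676563-71676592: tttgcctcggcaCAGCTGcaggtaggagcg
*Csf2rb* start, chr15:78325930-78325958: atgtccacaaTTCTGAGAAtcaggcgaag

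The 10 genes ranged from abundant to scarce in these cells. *Jak1* was the highest at 250.6 ± 21.3 CPM (SD over the 15 libraries), followed by *Flt3* at 232.5 ± 30.1, *Il7r* at 159 ± 28.1, *Il2rg* at 79.0 ± 15.1, *Csf2rb* at 50.6 ± 8.66, *Stat5b* at 33.2 ± 7.88, *Il6st* at 22.8 ± 4.19, *Stat5a* at 19.1 ± 4.72, *Jak3* at 16.6 ± 4.52 and *Kit* at 16.5 ± 5.53. In this order the ranges of neighbors overlapped at every step but one, since the lowest *Il7r* value (118.1) was above the highest *Il2rg* value (106.3). Partners that act together were unequal in level. The *Jak1* level was 12.7 ± 0.667 times that of *Jak3* in sgControl, and *Il7r* 1.96 ± 0.0647 times that of *Il2rg* (SD, n = 3). Of the receptor tyrosine kinases, which are separate receptors, *Flt3* was at 10.4 ± 2.13 times the *Kit* level in sgControl (SD, n = 3). *Jak1* and *Flt3* stood above 94.4% and 93.9% of the tested genes, whereas *Jak3* and *Kit* stood above 39.7% and 39.4%. The low genes rested on few reads, 13 to 42 for *Jak3* and 14 to 52 for *Kit* per library against 381 to 575 for *Jak1*, and their changes carried wider intervals.

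**Figure D1:**
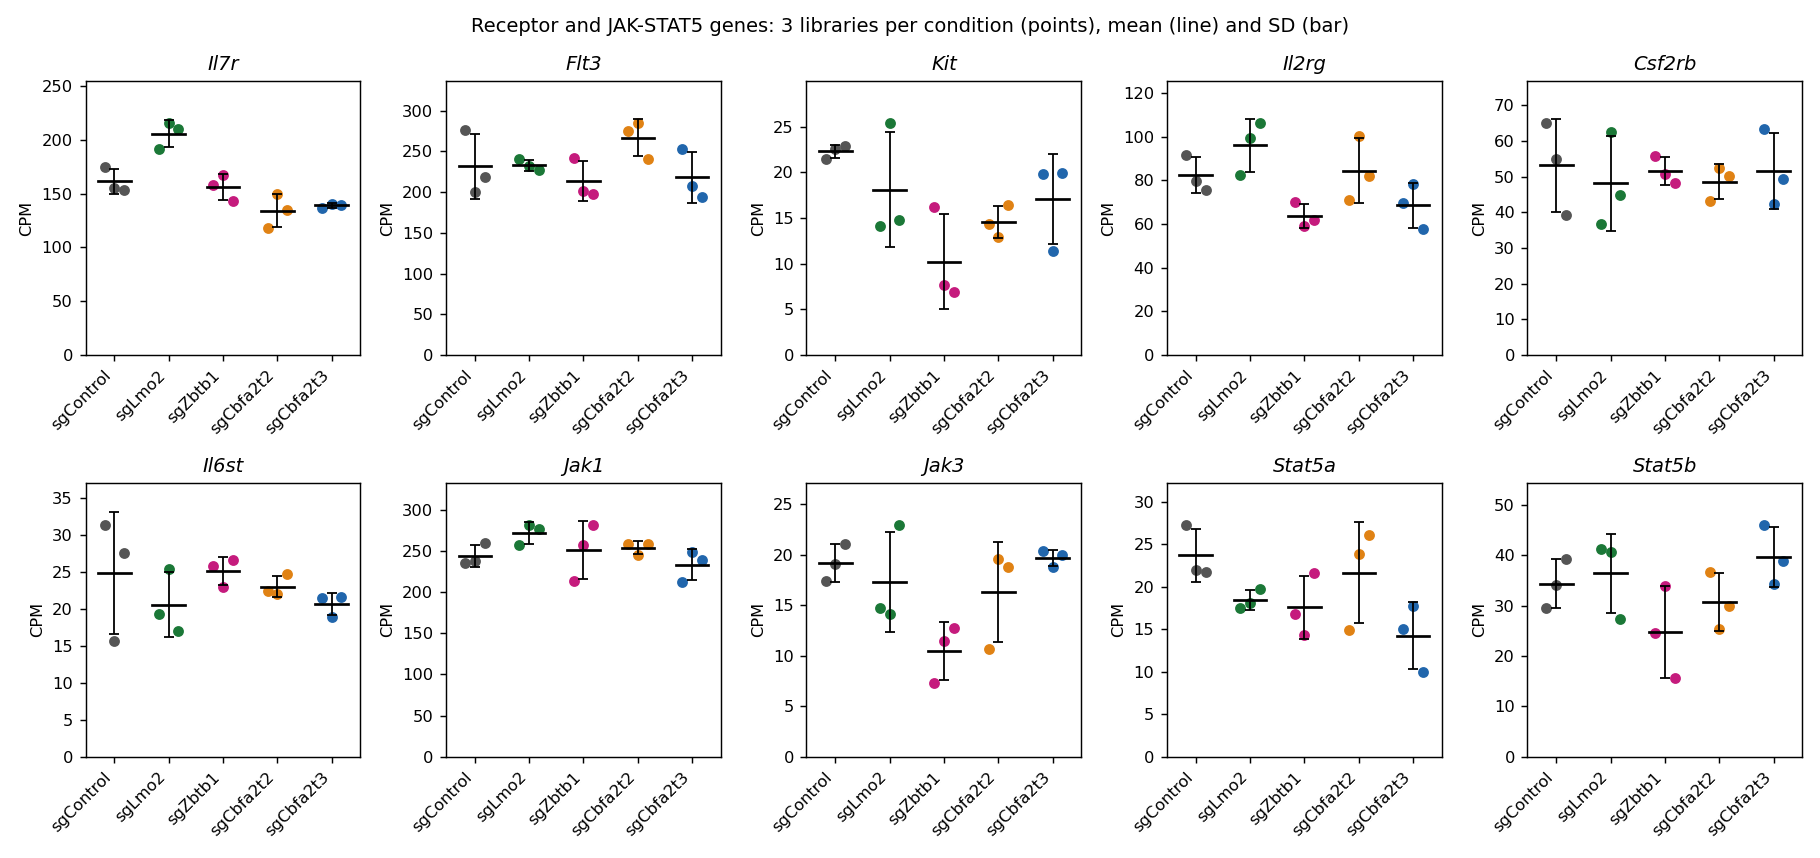
CPM (linear axis from 0) of the 10 genes in each of the 15 libraries by condition, with points for libraries, a line for the mean and a bar for the SD (n = 3). The 3 sgZbtb1 libraries sit below the 3 sgControl libraries for *Kit*, *Jak3*, *Il2rg* and *Stat5a*, and the 3 sgLmo2 libraries sit above all others for *Il7r*.

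Among the receptors of the cytokines supplied to the culture, *Kit* fell in the libraries labelled sgZbtb1. Its 3 values there were 16.2, 7.65 and 6.87 CPM (29, 16 and 14 reads), against 21.5, 22.6 and 22.9 in sgControl (37, 39 and 39 reads). The ranges did not overlap, and sgZbtb1 replicate 1 stood above the other two. The log2 fold change was -1.14 (SE 0.32, 95% interval -1.78 to -0.51, limma adjusted p = 0.0205). It was the single one of the 10 genes to pass in that comparison, where 4.79% of all tested genes passed. It did not pass when every gene with a value above 0 was tested (limma adjusted p = 0.0782) or against the 9 libraries of sgLmo2, sgCbfa2t2 and sgCbfa2t3 together (log2 fold change -0.70, limma adjusted p = 0.124). Without sgZbtb1 replicate 2 or 3, or sgControl replicate 2 or 3, *Kit* no longer passed (limma adjusted p = 0.108, 0.148, 0.0686 and 0.0755, respectively), and without sgZbtb1 replicate 1 it did (limma adjusted p = 0.00437). *Kit* was lower than sgControl on average in all other conditions as well, at 18.1 ± 6.34 in sgLmo2, 14.6 ± 1.78 in sgCbfa2t2 and 17.1 ± 4.89 in sgCbfa2t3, without passing the test (limma adjusted p = 0.949, 0.583 and 0.706). The difference between sgZbtb1 and each of these did not pass either (limma adjusted p = 0.143, 0.485 and 0.377), so the *Kit* change was not shown to be particular to sgZbtb1. Without sgZbtb1 replicate 1, *Kit* passed between sgZbtb1 and sgLmo2 (log2 fold change -1.16, limma adjusted p = 0.0378).

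*Il7r*, the gene on which IL-7 signaling rests, varied between the conditions, and its highest level was in sgLmo2. The libraries labelled sgLmo2 held 191.7, 215.6 and 209.8 CPM, against 174.8, 155.1 and 153.6 in sgControl. sgZbtb1 held 157.5, 166.9 and 142.9, sgCbfa2t2 118.1, 149.4 and 134.8, and sgCbfa2t3 136.7, 140.5 and 139.6. Every sgLmo2 library was above each of the 12 others, and every sgCbfa2t2 and sgCbfa2t3 library was below each sgControl library. A test over all 5 conditions (limma F test, which asks whether any condition differs from sgControl) gave an adjusted p of 0.00055 for *Il7r* and of 0.0444 for *Il2rg*, and these were the 2 of the 10 genes to pass, where 4.54% of all tested genes did. The *Il2rg* call was lost in 5 of 7 other settings, edgeR and DESeq2 among them, with adjusted p up to 0.144, and *Il7r* passed in all 7. Of the comparisons with sgControl alone, none passed for *Il7r*: the log2 fold change was 0.35 in sgLmo2 (SE 0.11, limma adjusted p = 0.713), -0.05 in sgZbtb1 (SE 0.11, limma adjusted p = 0.881), -0.27 in sgCbfa2t2 (SE 0.11, limma adjusted p = 0.44) and -0.21 in sgCbfa2t3 (SE 0.11, limma adjusted p = 0.514). Set against the 9 libraries made with the remaining gene-targeting sgRNAs rather than sgControl, sgLmo2 was higher by 0.53 on the log2 scale (limma adjusted p = 0.000101).

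*Flt3* was the steadiest of the 3 receptors for the supplied cytokines. sgControl held 275.9, 199.7 and 218.7 CPM, sgLmo2 240.3, 232.2 and 226.8, sgZbtb1 241.3, 200.8 and 197.9, sgCbfa2t2 274.6, 284.9 and 241.0, and sgCbfa2t3 253.1, 207.3 and 193.3. All conditions overlapped sgControl, and the log2 fold changes lay between -0.11 and 0.21, each with an SE of 0.11 (limma adjusted p from 0.538 to 0.996). The 95% interval for sgZbtb1 was -0.33 to 0.11, so these data do not show a change of *Flt3* and also leave room for a decline of that size. *Flt3* carried the most peaks of both factors among the 10 genes.

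*Il2rg*, the common gamma chain that pairs with *Il7r* here and with other receptors in T and NK cells, was lowest in sgZbtb1. The libraries labelled sgZbtb1 held 69.8, 59.3 and 61.9 CPM, against 91.8, 79.9 and 75.6 in sgControl and 82.6, 99.2 and 106.3 in sgLmo2. All 3 sgZbtb1 values were below those of both other groups. Against sgControl the log2 fold change was -0.37 (SE 0.15, 95% interval -0.67 to -0.06), which did not pass (limma adjusted p = 0.164). sgCbfa2t2 was at 84.4 ± 14.8 and sgCbfa2t3 at 68.5 ± 10.4 CPM, with ranges that overlapped sgControl (limma adjusted p = 0.981 and 0.542).

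When sgZbtb1 and sgLmo2 were compared directly, *Il7r* and *Il2rg*, the 2 chains of the IL-7 receptor, were both lower in sgZbtb1. *Il7r* was at 155.8 ± 12.1 against 205.7 ± 12.5 CPM (log2 fold change -0.40, SE 0.11, limma adjusted p = 0.0223). *Il2rg* was at 63.7 ± 5.50 against 96.0 ± 12.2 (log2 fold change -0.58, SE 0.15, limma adjusted p = 0.0111). These 2 of the 10 genes passed, where 5.06% of all tested genes did. At an unadjusted limma p under 0.05 there were 5 of the 10, beside 17.5% of all tested genes. Each call was lost when 1 of 4 libraries was left out. For *Il7r* these were sgLmo2 replicates 2 and 3 and sgZbtb1 replicates 1 and 3 (limma adjusted p = 0.113, 0.0925, 0.0545 and 0.151), and for *Il2rg* sgLmo2 replicates 2 and 3 and sgZbtb1 replicates 2 and 3 (limma adjusted p = 0.0603, 0.0999, 0.0638 and 0.0525). None of the 10 genes passed between sgZbtb1 and sgCbfa2t2, where 2.27% of tested genes did, or between sgZbtb1 and sgCbfa2t3, where 1.13% did, by limma, edgeR or DESeq2. At an unadjusted limma p under 0.05 there were 2 and 3 such genes, beside 12.7% and 10.0% of all tested genes.

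The remaining receptor chains did not pass in any condition. *Csf2rb* was between 48.1 and 53.1 CPM as a condition mean, with log2 fold changes of -0.14 to -0.02 and an SE of 0.19 each. Its near-identical neighbor *Csf2rb2* was at 6.41 CPM over the 15 libraries, and how reads were divided between the 2 is uncertain. *Il6st* was between 20.5 and 25.1 as a condition mean, with log2 fold changes of -0.23 to 0.07 and an SE of 0.26. sgControl alone spread from 15.6 to 31.4 for *Il6st*, and the 95% interval of the sgLmo2 change ran from -0.75 to 0.30.

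Of the kinases, neither passed against sgControl, and the low *Jak3* had its lowest condition mean in sgZbtb1. *Jak1* condition means were between 233.2 and 271.5 CPM, with log2 fold changes of -0.07 to 0.15 and an SE of 0.10 (limma adjusted p from 0.868 to 0.924). The libraries labelled sgZbtb1 held 7.26, 11.5 and 12.8 CPM of *Jak3*, against 17.4, 19.1 and 21.1 in sgControl. These ranges did not overlap, and the log2 fold change of -0.84 (SE 0.31, 95% interval -1.45 to -0.23) did not pass (limma adjusted p = 0.0946). sgCbfa2t3 was at 19.7 ± 0.790, sgLmo2 at 17.3 ± 4.95 and sgCbfa2t2 at 16.3 ± 4.95 CPM. The *Jak1* level was 24.6 ± 4.08 times that of *Jak3* in sgZbtb1, against 12.7 ± 0.667 times in sgControl.

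Neither gene of the STAT5 pair passed with all libraries in the fit. *Stat5a* was at 27.3, 22.0 and 21.7 CPM in sgControl and at 15.01, 17.7 and 9.97 in sgCbfa2t3. All 3 sgCbfa2t3 values were lower, but the log2 fold change of -0.72 (SE 0.29) did not pass (limma adjusted p = 0.334). *Stat5a* values in sgLmo2 and sgZbtb1 also lay below every sgControl value, with means of 18.4 ± 1.14 and 17.6 ± 3.70 (limma adjusted p = 0.938 and 0.477). *Stat5b* was at 34.4 ± 4.84 in sgControl and 24.7 ± 9.12 in sgZbtb1 (log2 fold change -0.51, SE 0.23, limma adjusted p = 0.22), and at 39.7 ± 5.98 in sgCbfa2t3 (log2 fold change 0.20, SE 0.23, limma adjusted p = 0.82). Without sgZbtb1 replicate 2, *Stat5b* passed as lower in sgZbtb1 than in sgLmo2 (log2 fold change -0.83, limma adjusted p = 0.047) and than in sgCbfa2t3 (-0.97, limma adjusted p = 0.0447), against -0.58 and -0.71 with all libraries (limma adjusted p = 0.152 and 0.143). The *Stat5b* level was 1.48 ± 0.368 times that of *Stat5a* in sgControl and 2.97 ± 0.981 times in sgCbfa2t3, with ranges of 1.09 to 1.81 and 1.94 to 3.89. The 2 genes are adjacent and similar in sequence, and neither ratio was tested.

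**Figure D2:**
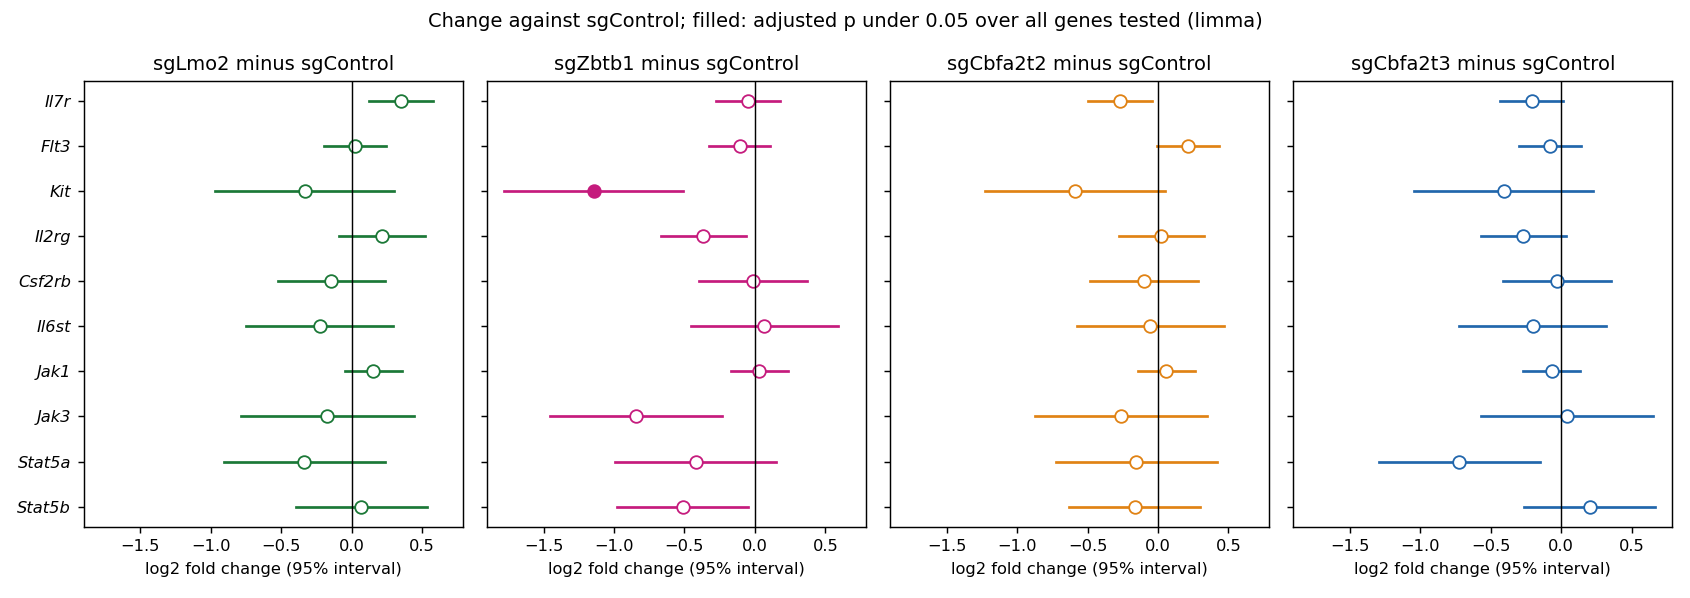
Log2 fold change (log2 of CPM plus 1) of the 10 genes in each condition minus sgControl, with 95% intervals from limma. *Kit* in sgZbtb1 at -1.14 is the single filled symbol (adjusted p under 0.05), and the intervals are widest for the low genes *Kit*, *Jak3*, *Stat5a* and *Il6st*.

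The counts over the 10 genes were set against those over all tested genes. No member passed in sgLmo2 (0.0173% of tested genes did), in sgCbfa2t2 (0.147%) or in sgCbfa2t3 (0.537%), by limma, edgeR or DESeq2, and 1 member in each was under an unadjusted limma p of 0.05, beside 5.65%, 9.56% and 10.6% of all tested genes. In sgZbtb1 there were 4 such members, beside 17.6% of all tested genes. DESeq2 gave no adjusted p to at least *Stat5a* in sgCbfa2t3, so *Stat5a* could not pass there by that tool. The 3 libraries of a condition all lay on one side of the 3 sgControl libraries for 2 members in sgLmo2 (10.6% of tested genes did so), 4 in sgZbtb1 (22.9%), 2 in sgCbfa2t2 (13.7%) and 3 in sgCbfa2t3 (15.8%). With 3 libraries against 3, the exact two-sided permutation test cannot give a p below 0.1, which it gave for each of these genes. The median log2 fold change of the 10 genes was -0.06 in sgLmo2 against 0.01 for all genes, -0.24 against -0.03 in sgZbtb1, -0.13 against 0.00 in sgCbfa2t2 and -0.14 against -0.01 in sgCbfa2t3. All 4 comparisons share the same sgControl libraries.

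The largest change in the wider pathway was in *Il2rb*, the beta chain that joins the common gamma chain in the receptors of IL-2 and IL-15. Its values were 61.6, 50.9 and 38.1 CPM in sgControl, 18.99, 13.9 and 8.84 in sgZbtb1, 53.7, 75.8 and 65.2 in sgLmo2, 27.7, 43.9 and 31.9 in sgCbfa2t2, and 44.5, 38.8 and 36.6 in sgCbfa2t3. The sgZbtb1 libraries were below all 12 others, and *Il2rb* fell by 1.81 on the log2 scale (SE 0.22, limma adjusted p = 1.16e-08). The sgZbtb1 libraries were also lower than those of sgLmo2, sgCbfa2t2 and sgCbfa2t3 in direct tests (log2 fold changes -2.19, -1.29 and -1.51, limma adjusted p = 2.58e-11, 8.62e-05 and 3.75e-06). *Il2rb* was the 1 called gene of the 23 tested among 39 other cytokine receptor genes in sgZbtb1, a share close to the 4.79% of all tested genes. None of the 23 passed in sgLmo2, sgCbfa2t2 or sgCbfa2t3, where 0.0173%, 0.147% and 0.537% of all tested genes did. Others on this list that these cells expressed without passing were *Il18r1* at 159.6, *Il4ra* at 98.4, *Ifngr1* at 92.0 and *Crlf2*, which pairs with *Il7r* to bind TSLP, at 29.6 CPM. *Csf3r*, *Lepr* and *Il9r* were at 0 in every library.

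Of 20 inhibitors of JAK-STAT signaling tested, 3 passed in sgZbtb1, all lower, where 2.94% of all tested genes passed as lower. *Ptpn1*, a phosphatase that acts on JAK kinases, held 357.2, 393.0 and 444.5 CPM in sgControl and 212.9, 230.9 and 237.7 in sgZbtb1, with no overlap, and fell by 0.80 (SE 0.10, limma adjusted p = 2.99e-08). It also fell in sgCbfa2t3 by 0.42, to 297.2 ± 37.8 (limma adjusted p = 0.0277). That call was lost without sgControl replicate 2 or 3 or sgCbfa2t3 replicate 1 (limma adjusted p = 0.104, 0.277 and 0.328), and when every gene with a value above 0 was tested (limma adjusted p = 0.245). Against the 9 libraries of the 3 other gene-targeting conditions the log2 fold change was -0.13 (limma adjusted p = 0.885). *Socs5*, of the suppressor of cytokine signaling family, was at 14.5, 13.9 and 15.2 in sgControl and 3.91, 8.13 and 3.93 in sgZbtb1 (log2 fold change -1.36, limma adjusted p = 0.0112). It no longer passed without sgControl replicate 3 or sgZbtb1 replicate 1 or 3 (limma adjusted p = 0.0512, 0.0624 and 0.0741). *Ptprc* (CD45, a phosphatase on all white blood cells) was at 391.3 ± 25.6 against 475.9 ± 36.0 (log2 fold change -0.28, limma adjusted p = 0.0393), a call that edgeR did not make (adjusted p = 0.0672) and that leaving out any 1 of the libraries except sgControl replicate 3 ended, with limma adjusted p up to 0.222. It was also lost with all genes above 0 tested, with median-of-ratios scaling (limma adjusted p = 0.0794 and 0.0583) and against the 9 libraries of the other gene-targeting conditions (log2 fold change -0.13, limma adjusted p = 0.364). *Ptprc* was as low in sgCbfa2t3, at 389.9 ± 23.6 (log2 fold change -0.29, limma adjusted p = 0.131), where DESeq2 called it (adjusted p = 0.0495). Between sgZbtb1 and sgCbfa2t3 its log2 fold change was 0.00464 (limma adjusted p = 0.998). *Socs2*, the most abundant inhibitor at 2365 CPM, did not pass in any of the 4 conditions.

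Of 12 genes that STAT5 is known to drive, 1 passed in sgZbtb1 (*Bcl2*) and 1 in sgCbfa2t3 (*Ccnd2*), where 4.79% and 0.537% of all tested genes passed. *Bcl2*, which protects lymphoid cells from death, fell in sgZbtb1. It held 705.6, 832.3 and 797.5 CPM in sgControl and 467.0, 423.1 and 474.8 in sgZbtb1, with no overlap, and fell by 0.77 (SE 0.09, limma adjusted p = 8.97e-10). It was also lower in sgZbtb1 than in sgLmo2, sgCbfa2t2 and sgCbfa2t3 (limma adjusted p = 1.89e-07, 1.03e-05 and 0.000273). In sgCbfa2t3 *Bcl2* was at 634.6 ± 86.0 and did not pass (limma adjusted p = 0.104), but did without sgCbfa2t3 replicate 3 (log2 fold change -0.40, limma adjusted p = 0.0177). *Ccnd2*, a cyclin of the G1 phase, rose in sgCbfa2t3 from 1130 ± 57.8 to 1577.5 ± 170.9 CPM (log2 fold change 0.48, SE 0.08, limma adjusted p = 0.000116). *Cish*, *Socs1*, *Socs3* and *Pim1*, which also belong to this list, did not pass in any of the 4 conditions. Means of genes that did not pass lay on both sides of sgControl: *Cish* was at 53.7 in sgControl and 43.0 in sgZbtb1 and *Pim1* at 573.6 and 507.9, whereas *Mcl1* was at 152.6 and 182.5 and *Ccnd3* at 491.1 and 551.9.

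In the remaining lists a single gene passed. Of 19 tested genes acting below Kit and Flt3, 1 passed in sgCbfa2t3, where 0.537% of all tested genes did. This gene, *Pik3cd*, the PI3-kinase catalytic subunit of white blood cells, fell from 255.6 ± 19.8 to 176.5 ± 10.4 (log2 fold change -0.53, SE 0.10, limma adjusted p = 0.00228). The *Pik3cd* call was lost without sgControl replicate 2 (limma adjusted p = 0.0681). Against the 9 libraries of the 3 other gene-targeting conditions its log2 fold change was -0.35 (limma adjusted p = 0.0409). None of the 6 other JAK and STAT genes tested passed in the 4 conditions. *Stat3* was the most abundant STAT at 202.9 CPM, above *Stat5b* and *Stat5a*, and *Stat4* was at 0. Of the genes of the supplied cytokines, *Kitl* was at 0 in all libraries, *Il7* was at or below 0.578 CPM, and *Flt3l* was at 8.92. In sgLmo2 and sgCbfa2t2 no gene of any of these lists passed against sgControl by limma. Against the 9 libraries of the 3 other gene-targeting conditions, sgLmo2 was higher for *Il2rb* (log2 fold change 1.26), *Ptpn1* (0.54), *Bcl2* (0.29) and *Ptprc* (0.27) and lower for *Ccnd2* (-0.39), with limma adjusted p from 2.34e-06 to 0.0193. At an unadjusted limma p under 0.05 there were 2 and 3 of the 23 receptors, 1 and 3 of the 20 inhibitors, 3 and 2 of the 12 STAT5 targets and 0 and 2 of the 19 genes below Kit and Flt3, beside 5.65% and 9.56% of all tested genes.

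**Figure D3:**
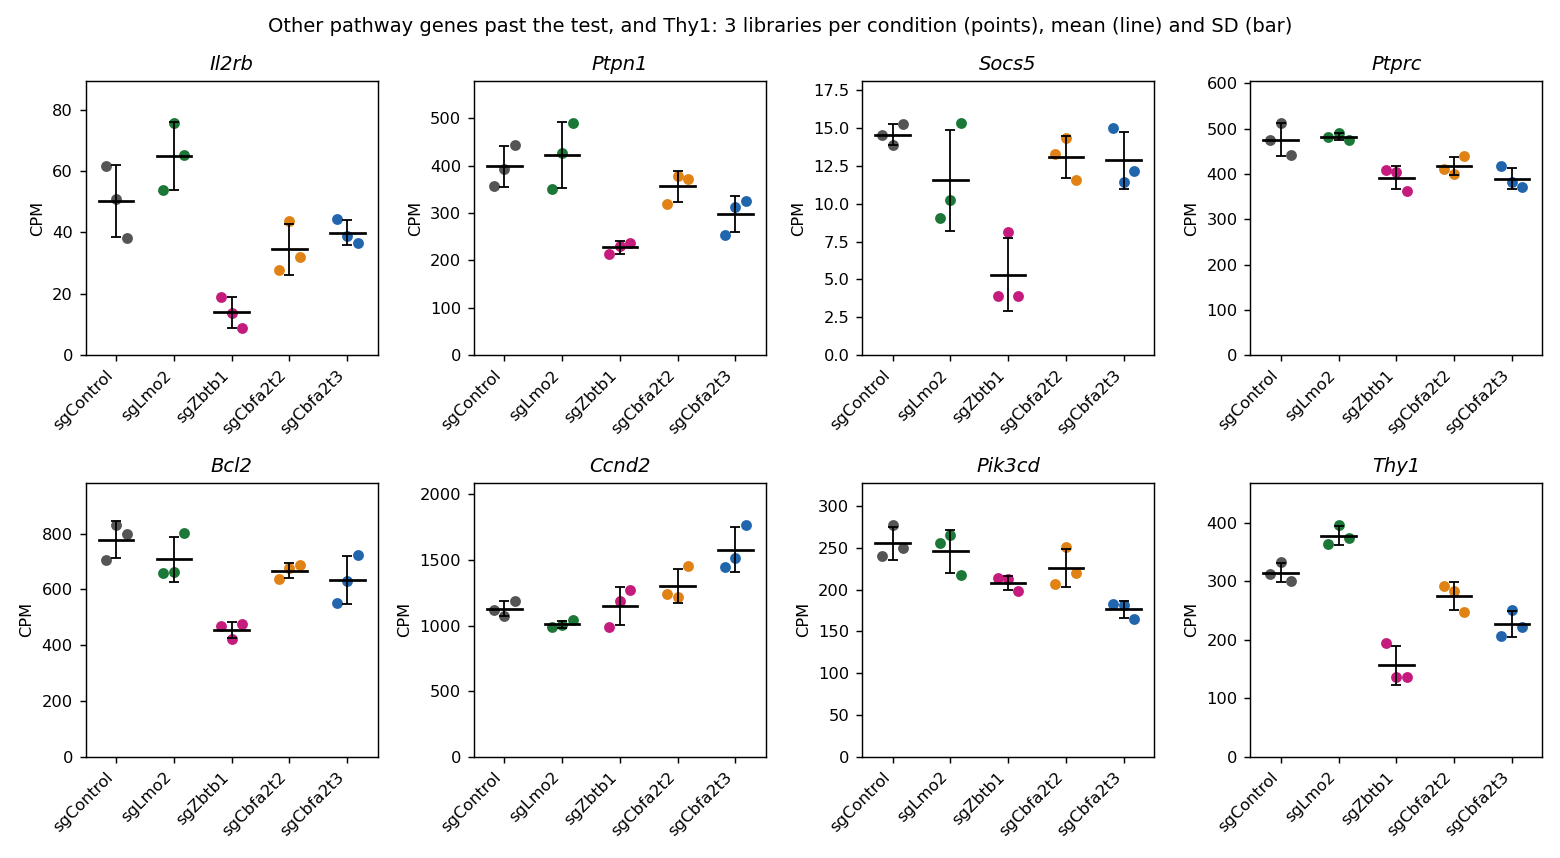
CPM (linear axis from 0) of the 7 pathway genes that passed against sgControl and of *Thy1*, in each of the 15 libraries, with the mean and SD (n = 3). The sgZbtb1 libraries lie below all others for *Il2rb*, *Ptpn1*, *Socs5*, *Bcl2* and *Thy1*, and the sgCbfa2t3 libraries are the highest for *Ccnd2*, apart from 1 sgCbfa2t2 library, and the lowest for *Pik3cd*.

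Marker sums differed from sgControl in every condition as well, and their part in the results above, those for *Il7r* included, was not tested. Summed over 8 T-cell markers, the level was 318.4 to 346.1 CPM in sgControl and 142.9 to 207.3 in sgZbtb1. Nearly all of it was *Thy1* (314.96 ± 16.4 against 156.2 ± 33.6, limma adjusted p = 6.49e-11), which was also lower in sgCbfa2t3 at 226.6 ± 22.2 (limma adjusted p = 0.014), while *Cd3e* and *Cd8a* were at or near 0. Summed over 8 myeloid markers it was 148.1 to 226.9 against 115.4 to 143.0, led by *Adgre1*, and *Cd14* and *Elane* were at 0. Summed over 8 B-cell markers it was 5.79 to 13.5 against 1.12 to 9.82, with *Cd79a* and *Ms4a1* at 0, and *Pax5* was lower, at 0.81 against 6.80 (limma adjusted p = 0.0042). Summed over 13 progenitor markers it was 1963 to 1988 against 2099 to 2254, with *Cd93* and *Cd34* higher (limma adjusted p = 0.000159 and 0.00107) and *Ptprc*, as given above, lower. Summed over 6 erythroid markers it was 115.5 to 148.1 in sgControl and 185.0 to 277.2 in sgCbfa2t3, nearly all *Hbb-bt*, with *Hba-a1* at 0. Summed over 12 stromal markers it was 311.9 to 336.9 in sgControl and 138.5 to 201.1 in sgZbtb1, nearly all of it again *Thy1*, which stands on both lists, while *Col3a1*, *Dcn*, *Lum* and *Postn* were at 0 in all 15 libraries. In the sgLmo2 libraries the sums were 377.7 to 419 for T-cell, 242 to 286.5 for myeloid and 376.6 to 411.2 for stromal markers, all above sgControl, and 71.2 to 113.1 for erythroid markers, all below it. The B-cell (10.4 to 23.0) and progenitor (1952 to 2064) sums overlapped those of sgControl. In sgCbfa2t2 the T-cell (256.5 to 307.1) and stromal (257 to 302.3) sums were all below sgControl, and the erythroid (152.7 to 182.5) and progenitor (2030 to 2124) sums all above it. In sgCbfa2t3 the T-cell (228.4 to 268.4) and stromal (217.1 to 256.9) sums were likewise all below sgControl.

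The genes whose levels ran most like each receptor were listed as a description over the 15 libraries, which share 5 conditions. Among 8157 genes with a mean above 10 CPM, *Il7r* was closest to *Enah* (Pearson r = 0.814), *Mxi1* (0.799) and *Creld2* (0.793). *Flt3* was closest to *Pts* (0.793), *Cyb5r1* (0.788) and *Rps6* (0.773). *Kit* was closest to *Bfar* (0.838), *Syne1* (0.830) and *E130308A19Rik* (0.821).

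Peaks were then taken whose nearest gene was one of the 10. The Zbtb1 list held 5898 peaks, of which 10 belonged to 6 members (*Flt3*, *Il6st*, *Stat5b*, *Il7r*, *Jak1* and *Jak3*). The Cbfa2t3 list held 6077 peaks, of which 7 belonged to 4 members (*Flt3*, *Il6st*, *Jak3* and *Csf2rb*). Of all tested genes, 26.8% were nearest to at least 1 Zbtb1 peak and 20.5% to at least 1 Cbfa2t3 peak. Both lists give 1 set of peaks for 2 replicates, so positions and scores have no replicate error. The score below is the depth-normalized peak score of the peak caller, HOMER, with a list median of 28.0 for Zbtb1 and 33.2 for Cbfa2t3.

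*Flt3* held the strongest peaks of both factors near any of the 10 genes. The Zbtb1 peak at its start (chr5:147400130-147400500, 5′ UTR of exon 1, 174 bases from the start) had a score of 141.3, above 95.2% of the Zbtb1 list. The Cbfa2t3 peak at the same place (chr5:147400144-147400522) had a score of 47.7. In intron 9, about 33.9 kb into the gene, the order was the other way around: Cbfa2t3 had a score of 175.3 (chr5:147366369-147366747, above 97.3% of its list) and Zbtb1 one of 20.0 (chr5:147366405-147366775). The 2 factors' peak centers were 18 bases apart at the start and 32 bases apart in the intron. Scores of different factors are not on one scale, so only each factor's own order is described. Zbtb1 had a further peak in intron 9 (26.9, at 37.2 kb) and Cbfa2t3 one in intron 1 (42.0, at 7.63 kb). In intron 20 of *Flt3* both lists held another pair of overlapping peaks (18.1 and 77.3) that the annotation gave to the neighboring gene *Urad*, so a rule of nearest start leaves it out.

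At the JAK genes, the peaks lay at the starts. *Jak3* had a Zbtb1 peak of 84.7 (chr8:71676430-71676800, intron 1, 232 bases from the start) and an overlapping Cbfa2t3 peak of 29.5 (chr8:71676334-71676712, 5′ UTR), with centers 92 bases apart. *Jak1* had a Zbtb1 peak of 34.6 (chr4:101264993-101265363, 5′ UTR) and no Cbfa2t3 peak, the closest one being 243.9 kb away. The 2 *Flt3* pairs described above and the *Jak3* pair were the 3 of 10 Zbtb1 peaks and 3 of 7 Cbfa2t3 peaks that overlapped. Over the whole lists, 25.2% of Zbtb1 peaks and 24.4% of Cbfa2t3 peaks overlapped one of the other factor.

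*Il7r* had 1 peak, of Zbtb1, 45.1 kb upstream in intergenic DNA (chr15:9574777-9575147, score 54.3, above 77.7% of the list). *Stat5b* had Zbtb1 peaks in intron 3 (37.1, chr11:100804532-100804902) and 2.73 kb upstream (18.3, chr11:100853129-100853499). The latter lies in the interval between *Stat5b* and *Stat5a*, and was 6.04 kb from the *Stat5a* start. *Il6st* had a Zbtb1 peak at its start (16.7, chr13:112463965-112464335) and one 45.1 kb downstream (27.5, chr13:112508996-112509366). The authors' annotation calls the latter intergenic, whereas GENCODE vM21 places it in an exon and UTR of *Il6st*, near the 3′ end. Cbfa2t3 had 2 intergenic peaks, 39.3 and 23.9 kb upstream of *Il6st* (23.8 and 28.1), and 1 at the start of *Csf2rb* (22.0, chr15:78325797-78326175).

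*Kit*, *Il2rg* and *Stat5a* had no peak in either list. From the *Kit* start (chr5, gene at 75574916 to 75656722, plus strand) the closest Zbtb1 peak was 530.4 kb away and assigned to *Chic2*, and the closest Cbfa2t3 peak was 255.5 kb away and assigned to *Kdr*. From the *Il2rg* start the distances were 465.8 kb and 2265 kb. The member that passed in sgZbtb1 had no listed peak of either factor assigned to it, and *Flt3*, with the highest Zbtb1 score of the 10, did not pass. A link between peaks and changes in level was not tested. Of the wider pathway genes that passed in sgZbtb1, *Bcl2* had a Zbtb1 peak at its start (score 136.3, 0.066 kb away) and *Il2rb* had peaks of both factors about 17.1 kb upstream (60.9 for Zbtb1, 112.2 for Cbfa2t3). *Ptpn1* had 3 peaks of each factor, *Ptprc* 1 of Zbtb1 and 4 of Cbfa2t3, and *Socs5* had none. Of all tested genes, 26.8% had a Zbtb1 peak and 20.5% a Cbfa2t3 peak by the same rule.

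**Figure D4:**
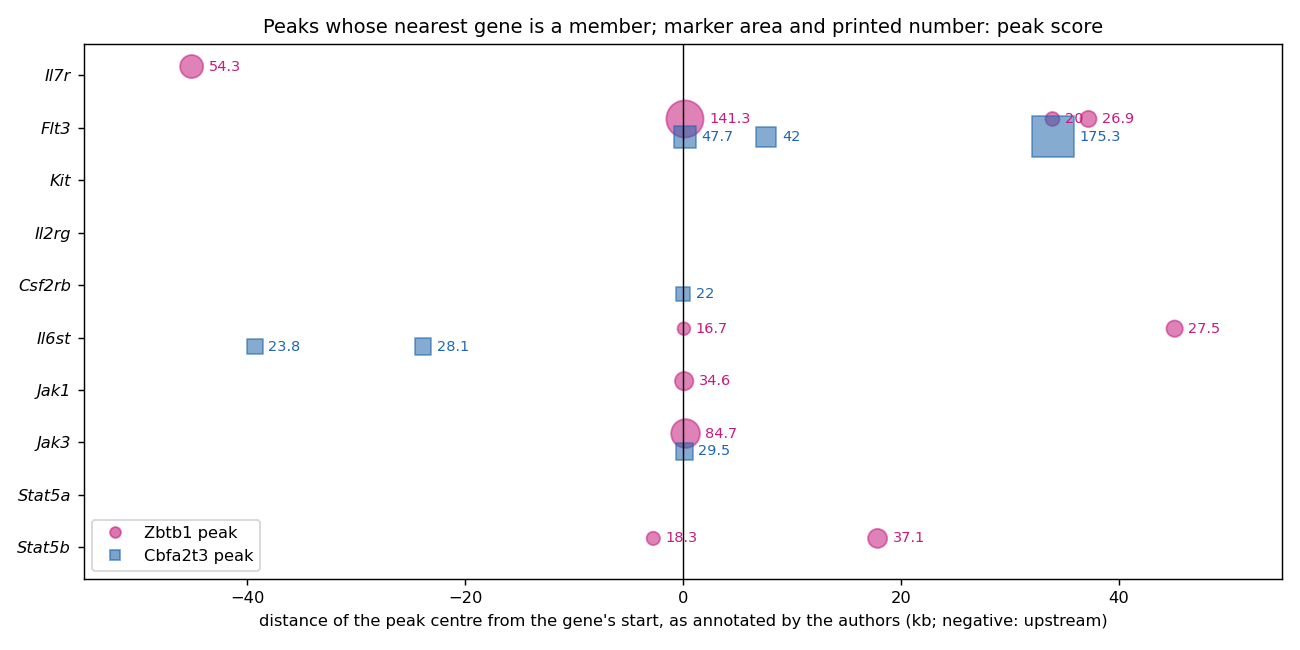
Distance of each peak center from the start of its nearest gene in kb (negative is upstream), for Zbtb1 (circles) and Cbfa2t3 (squares), with marker area and number for the peak score. *Flt3* holds the highest scores of both factors (141.3 at the start and 175.3 at 33.9 kb), and *Kit*, *Il2rg* and *Stat5a* hold none.

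The letters of the peaks were read in the 200-base windows at their centers. TGTGGT, the Runx core, was in 5 of the 10 Zbtb1 windows and 4 of the 7 Cbfa2t3 windows, beside 41.3% and 43.7% of all windows of those lists. It was 3 bases before the center of the Zbtb1 peak in *Flt3* intron 9, in the *Flt3* start peaks of both factors, at 2 places in the distal *Il7r* peak, and at 3 places in the peak between *Stat5b* and *Stat5a*, 2 of them back to back. It was also at 2 places in the *Stat5b* intron 3 peak and at 1 place in each of the upstream *Il6st* peaks of Cbfa2t3. CAGCTG was in 1 window of each list, the shared *Jak3* peak, beside 15.5% of Zbtb1 and 47.4% of Cbfa2t3 windows. CAGATG was in 1 Zbtb1 and 2 Cbfa2t3 windows (11.1% and 30.5% of all windows), which are the *Flt3* intron 9 pair and the *Csf2rb* start. TGGTGGTGG was in 1 Zbtb1 window, the 3′ end of *Il6st*, where the repeat gives 10 overlapping matches, and in no Cbfa2t3 window (9.56% and 1.27% of all windows). TTCNNNGAA and AGATAA were each in 1 window, the Cbfa2t3 peak at the *Csf2rb* start, beside 10.3% and 6.47% of Cbfa2t3 windows. A match describes letters and not a bound factor.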

How the data were processed

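QuantSeq 3′ mRNA libraries (15) and ChIP-seq of Zbtb1 and Cbfa2t3 (2 replicates each, with input) were analyzed from the deposited tables. The authors trimmed reads with fastp, mapped them to mm10 with STAR and scaled gene counts to the same total in each library. They called these values TPM, but the deposited values are CPM: they are not divided by length, and 100% of them came out as whole reads within 0.05 reads. The strand setting of counting is not given in the sources used here. ChIP reads were mapped by the authors with Bowtie 1.1.1, and HOMER gave the deposited peak score and the focus ratio (a fraction, not used here) for peaks reproducible in both replicates. Columns of the authors' own averages, fold changes and p-values were not used.

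Here limma 3.58.1 (lmFit, eBayes with trend, R 4.3.3) was fitted to log2(CPM + 1) of all 15 libraries for the 11554 genes with a mean above 1, with Benjamini-Hochberg adjustment over all of them and a threshold of 0.05. A fold change on this scale understates that of low genes. edgeR 4.0.16 and DESeq2 1.42.0 on the recovered reads, other filters, pseudocounts and scalings, single groups, the replicate block and leaving out each library were alternatives. The limma script was tested on simulated data. Replicates of a condition differed by more than counting noise (chi-square per degree of freedom, 2.22 to 3.60). With edgeR and DESeq2, 569 and 509 genes passed in sgZbtb1 against sgControl, and 554 with limma. Peaks were set against GRCm38.p6 sequence (RefSeq) and GENCODE vM21 genes, with an overlap of at least 1 base counted as shared. Motifs were searched with Python 3.11.15 and pysam 0.24.0.

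All 10 genes are named in full, along with pathway genes past the threshold against sgControl (at most 6 for a list and comparison), the 3 genes most similar to *Il7r*, *Flt3* and *Kit*, and the 4 targeted genes. Other names (genes at 0, abundant genes, marker genes and pathway genes that did not pass) were chosen after their values were seen. The members and lists were chosen with earlier results of these data known.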

Additional observations from a re-analysis of the deposited data

How the results depend on the processing

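Of the 10 genes, *Kit* passed in sgZbtb1 against sgControl in 7 of 9 other settings. It failed when all genes with a value above 0 were tested (0 members called, limma adjusted p = 0.0782) and against the 9 libraries made with the remaining gene-targeting sgRNAs (0 members called, limma adjusted p = 0.124), where 1 member (*Il7r*) was called in sgLmo2. Leaving out 1 library gave 0 to 1 called members in sgZbtb1, 0 to 2 between sgZbtb1 and sgLmo2 and 0 to 1 (*Stat5b*, without sgZbtb1 replicate 2) between sgZbtb1 and sgCbfa2t3. It gave 0 in each of the other comparisons of a pair, and 1 to 2 over all conditions. Over all conditions, 1 member (*Il7r*) was called with a pseudocount of 0.1, with all genes above 0, with median-of-ratios size factors, by edgeR and by DESeq2, so *Il2rg* was lost in these 5 settings. The authors' rule for unlogged values, which needs a log2 ratio beyond 1, called 0 members between sgZbtb1 and sgLmo2. With peak scores of at least 30, 1 member (*Flt3*) had a Cbfa2t3 peak in place of 4, beside 12.8% in place of 20.5% of all tested genes. For Zbtb1, 5 members had such a peak in place of 6, beside 14.3% in place of 26.8% of all tested genes. Against those 9 libraries, *Bcl2* in sgLmo2 was higher by 0.29 (limma adjusted p = 0.0124), the reverse of its -0.14 against sgControl, and *Il2rb*, *Ptpn1*, *Ptprc* and *Ccnd2* were also called there. Except where the construction shows it (fewer or other libraries, more genes tested), the cause was not tested. Log2 fold changes of members that did not pass changed sign in 56 fits.

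Replicate numbers paired the libraries weakly at most. The mean correlation of same-numbered deviations was 0.0279 (-0.0072 to 0.0656), against -0.0139 (-0.0608 to 0.032) for different numbers. None of the 30 same-numbered pairs was over 0.1, a cut-off that cannot exclude a weak pairing. With the replicate block, 1 member was called in sgZbtb1 against sgControl (*Kit*, limma adjusted p = 0.0152) and 2 between sgZbtb1 and sgLmo2, and it changed no call of a member. *Bcl2* passed in sgCbfa2t3 with the block (log2 fold change -0.30, limma adjusted p = 0.0313) and not without it. Depth limits *Kit* and *Jak3*, at 13 to 52 reads per library.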
